A study of Drosophila melanogaster with 3 samples.

Results

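The 500 strongest binding sites of the ecdysone receptor EcR were described in whole Drosophila melanogaster pupae. They are the 500 peaks with the highest deposited signal value in the list that combines all replicates, which holds 8595 weaker peaks. They were thus selected on signal, and their signal is given only as a description. Chromatin immunoprecipitation followed by sequencing (ChIP-seq) had been carried out with an antibody against GFP on a transgenic fly line that stably expresses EcR with eGFP fused to its C-terminus. The pupae were aged 24 hours, males and females were pooled, and chromatin was sheared by sonication. There were 3 biological replicates from separate biosamples, which form the only group. Neither the promoter of the tagged receptor nor whether the transgene carries sequence of the EcR locus is given in the sources used here. Whole animals were used, so binding in fewer cells and less binding per cell cannot be told apart.

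EcR is a nuclear receptor that binds DNA as a heterodimer with ultraspiracle (usp) and is the receptor of the moulting hormone 20-hydroxyecdysone. With hormone it recruits coactivators, and without hormone it can recruit corepressors. It acts on a small set of early genes that encode transcription factors, several of them nuclear receptors, which in turn control the later genes of moulting and metamorphosis. The classical binding element is an inverted repeat of a 6-base word, the receptor hexamer, with 1 base between the copies (IR1). The element upstream of the small heat shock gene Hsp27 is its textbook example.

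The IR1 elements that lay at these peaks are shown first, because they are the known DNA target of the receptor. An element was accepted with at most 1 mismatch to the 13-base IR1 consensus within 100 bp of a summit, on both strands, and the nearest of the best matches was taken. The 6 elements printed here with no mismatch come first. Then follow 6 with 1 mismatch, at known ecdysone response genes, at the ecdysone importer gene Oatp74D and at Hsp27. All are in the dm6 assembly, 5′ to 3′ on the + strand. Capitals mark the 13-base element, whose coordinates are given, and 5 bases on either side are in lower case.
pum (rank 129, intron, chr3R:9135324-9135336): actgaGGTTCAGTGAACTtttcg
beat-Ib (rank 138, intron, chr2L:15909235-15909247): cgcagAGTTCATTGACCTccggg
Eip93F (rank 221, intergenic, chr3R:21941199-21941211): caaaaAGTTCATTGAACCtggcc
IPIP and Pfas (rank 366, promoter, chr2L:6046142-6046154): acacgGGTTCAATGAACCaaata
CG32264 (rank 444, intron, chr3L:3784278-3784290): tggcaAGTTCATTGAACCtcatt
CG32369 (rank 487, intron, chr3L:7805205-7805217): tgtcgAGTTCAATGAACTttcgc
Eip75B (rank 4, intron, chr3L:17993935-17993947): cgacaAGTTCACTGACATttcgc
Hr4 (rank 63, promoter, chrX:1941791-1941803): aaaaaAGTTCAGTGAACGaactt
E23 (rank 72, intron, chr2L:3339526-3339538): ggtcgAGTGCATTGAACCacaca
Oatp74D (rank 149, intron, chr3L:17495738-17495750): tgtcgGGGTCAATGGACTtttcc
Blimp-1 (rank 167, intron, chr3L:5634307-5634319): aaacaAGTTCAATGACCGaccta
Hsp27 (rank 362, intergenic, chr3L:9383516-9383528): acaagGGTTCAATGCACTtgtcc

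Windows reaching 50 bases to either side of the summit show how such an element sits at a strong peak, and that the 3 strongest peaks lacked one. In the first 2 lines the capitals mark an IR1 element, and in the last 3, which held none, they mark the 5-base word GAGAG or its reverse CTCTC where it is present. GAGAG is the word bound by GAGA factor, the product of Trl, a protein that keeps chromatin open at many fly promoters and enhancers.
Eip75B (rank 4, chr3L:17993904-17994004): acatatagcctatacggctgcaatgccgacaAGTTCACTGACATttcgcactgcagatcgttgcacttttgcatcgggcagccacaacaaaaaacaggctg
Eip75B (rank 18, chr3L:17972501-17972601): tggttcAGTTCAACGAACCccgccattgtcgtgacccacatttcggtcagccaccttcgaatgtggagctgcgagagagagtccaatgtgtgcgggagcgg
COX7AL2 (rank 1, chr2L:2200375-2200475): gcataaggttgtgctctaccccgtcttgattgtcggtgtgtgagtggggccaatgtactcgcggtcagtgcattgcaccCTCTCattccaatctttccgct
vri (rank 2, chr2L:5293055-5293155): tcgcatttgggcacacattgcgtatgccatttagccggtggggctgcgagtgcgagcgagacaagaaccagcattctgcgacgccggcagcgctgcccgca
Eip75B (rank 3, chr3L:18005696-18005796): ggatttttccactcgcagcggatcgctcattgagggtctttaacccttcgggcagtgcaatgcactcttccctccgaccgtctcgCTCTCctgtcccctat

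The 500 peaks had signals from 2477 to 20268, with a median of 3572, whereas the whole list reached down to 358. Signal scales differed between the lists, so ranks within a list were used throughout. The combined list is identical to the strongest peaks of the list called on the pooled alignments of all 3 replicates. Every one of its peaks carries the same deposited −log10 q-value, so q could not order them. The sequencing depth behind a peak is unknown, as no source used here states it.

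The strongest peaks were largely the same in each replicate. Of the 500, 449 were among the own 500 strongest peaks of replicate 1, 450 in replicate 2 and 451 in replicate 3, with summits within 100 bp counted as shared. The mean was 90.0% ± 0.2 (SD, n = 3). All 3 replicates held 391 of them (78.2%), beside 4.31% of the whole list, and only 2 were in no replicate's own 500. These are descriptions, since the combined list was made from the same replicates. The overlap of the replicates' own lists does not depend on it. Replicates 1 and 2 shared 90.2% of their own 500 strongest summits. Replicate 3 shared 81.0% with replicate 1 and 81.4% with replicate 2, so replicate 3 was the least like the other two.

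Counted against the fixed limit of the own 500, agreement fell towards the end of the list, where ranks lie close to that limit. With a matched limit, 87, 88 and 93 of ranks 1 to 100 were among the own 100 strongest of replicates 1, 2 and 3. All of ranks 1 to 100 were in the own 500 of all 3 replicates, as were 99 of the next 100 and 98 of ranks 201 to 300. The count was 75 for ranks 301 to 400 and 19 for ranks 401 to 500, where a peak lies close to the limit in every list. Summit positions repeated closely: the median distance from a combined summit to the replicate's summit was 9 bp in replicate 1 and 6 bp in both other replicates. A summit within 100 bp was found for every one of the 500 in replicate 1, for all but 2 in replicate 2 and for all but 3 in replicate 3. None of these ranked worse than 1313 in its own list. Replicate 3 alone missed 38 of the peaks in its own 500, against 15 for replicate 1 and 17 for replicate 2.

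**Figure D1:**
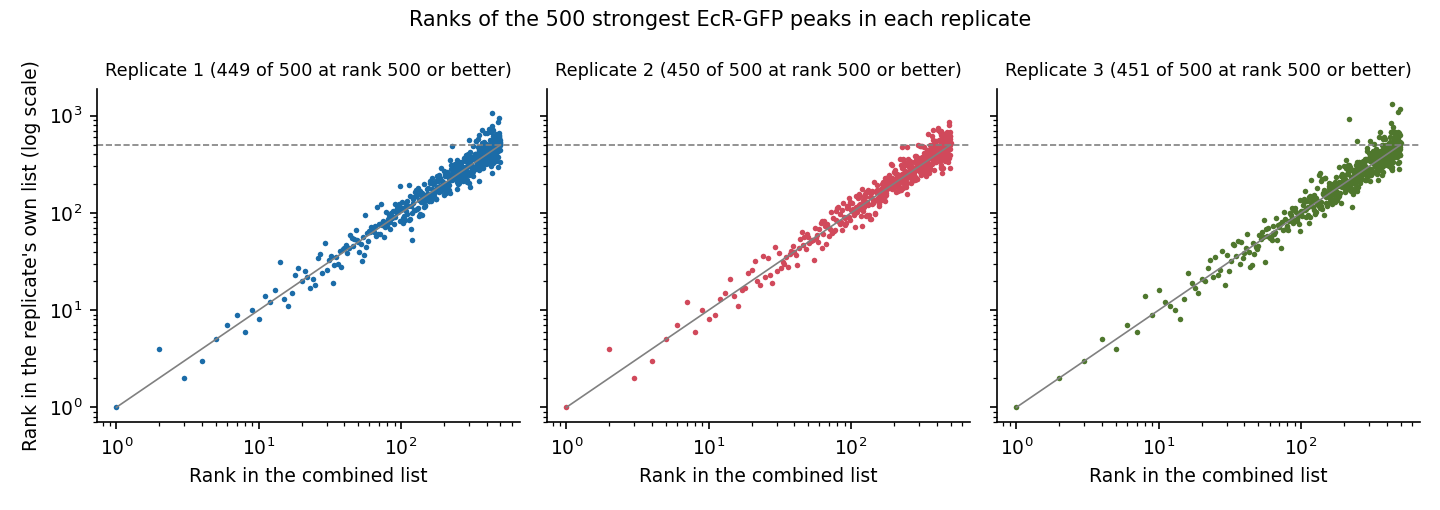
Rank of each of the 500 strongest peaks in the combined list (horizontal, log scale) against its rank in each replicate's own list (vertical, log scale); the solid line is equal rank and the dashed line is rank 500. Points follow the line in all 3 replicates, and 449, 450 and 451 of them lie at or under the dashed line in replicates 1, 2 and 3.

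Ranks of a single peak differed little between replicates. Among the 495 peaks ranked in all 3, the worst rank was a median of 1.45 times the best, and 424 stayed within 2 times. Only 12 exceeded 3 times, with the worst rank in replicate 3 for 7 of them and in replicate 1 for 5. The widest spread was at a weaker summit inside the vri intron interval (rank 217), which ranked 229, 184 and 934 in replicates 1, 2 and 3. The intron of Atet, an ABC transporter gene (rank 437), was next with 259, 260 and 1313. In both, replicate 3 was the low one. The promoter of Hsp26, a small heat shock protein gene (rank 229), went the other way with 490, 478 and 116, as did the peak nearest to Kr-h1 (rank 14) with 31, 21 and 8. Others among the 10 widest spreads were at CG17746, Evi5, ssp3 and CG46304, Boot and Nadk2, Ppa, and Np. A summit within 100 bp was lacking in 1 replicate for 5 peaks, at Eip75B (rank 119), CG43338 (310), pnut (349), bora and not (359), and Glut4EF and CG46467 (406). In each case that replicate had a summit between 108 and 212 bp away.

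The limit of 500 fell at no gap in signal. Rank 500, at the promoter of the metalloprotease gene AdamTS-A, had a signal of 2477.45. The next peak in the list, at CG1943 and Ufl1, had 2473.29. The 2 peaks just above rank 500 lay in an intron of Glut4EF and CG46467 (signal 2484.29) and at the promoter of Ald1 and CG6154 (2483.88). The 2 that followed the first excluded peak lay near Su(z)2 (2472.19) and at CG30197 and Cpr51A (2471.81).

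The strongest peaks were wide and often held several summits. Their median width was 1184 bp, against 538 bp for the other peaks, and the widest was 5765 bp. The interval held more than 1 summit for 282 of them (56.4%), beside 30.9% of the whole list. Width and signal come from the same peaks, so the difference is a description. The 500 summits lay in 456 intervals, of which 35 held 2 or more of them.

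By position, the 500 lay most often in introns. Each summit was put in 1 class, with promoter (within 500 bp of an annotated start) taking precedence over exon, UTR and intron. Introns held 246 (49.2%), promoters 164 (32.8%) and intergenic sequence 62 (12.4%). Of the whole list, 45.5%, 36.5% and 12.3% were in these classes. The other 28 lay in coding exons (11), noncoding exons (7), 3′ UTRs (6) and 5′ UTRs (4).

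Position did not enter the selection, so it was compared within each replicate between its own 500 strongest peaks and the rest of its own list down to the length of the combined list. The promoter share was 34.4%, 34.0% and 31.6% in the own 500 of replicates 1, 2 and 3, and 37.2%, 38.2% and 35.3% in the rest. It was lower among the strongest in 3 of 3 replicates, with a mean difference of -3.54 ± 0.68 percentage points (SD, n = 3). The intron share was higher in 3 of 3, by 3.04 ± 0.59 points, and the intergenic share by 0.75 ± 0.17. An exact two-sided sign-flip permutation test gave p = 0.25 for each, which is the smallest value that 3 replicates allow, so no such difference could pass 0.05. The differences over replicates given below as a mean ± SD had that same p and limit. For intergenic peaks the replicates' own 500 ranged from 12.2% to 13.6%, wider than that difference.

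Promoter peaks among the 500 were more often at noncoding genes. Of the 164, 30 (18.3%) lay within 500 bp of noncoding starts alone, against 9.45% of the other promoter peaks. With protein-coding starts only, the promoter share was 26.8% in the 500 and 33.2% in the others.

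**Figure D2:**
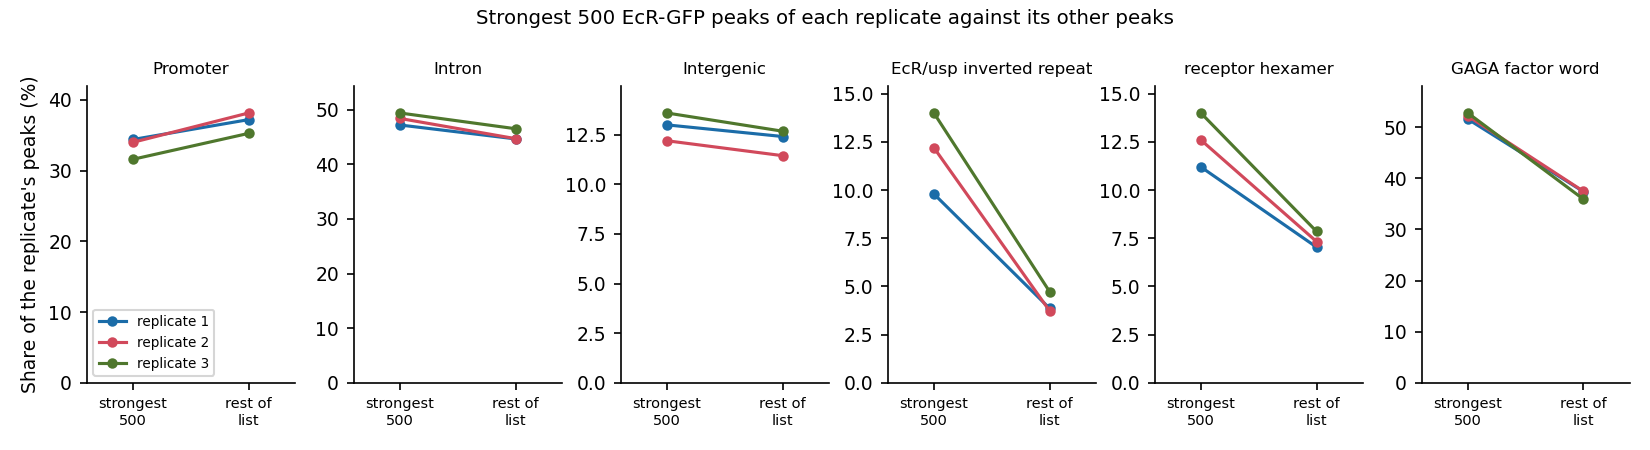
Share of peaks (vertical, %) in each location class or with each sequence element within 100 bp, for the own 500 strongest peaks of each replicate and for the rest of its list down to the length of the combined list; each line is 1 replicate. The lines for the inverted repeat fall from between 9.8% and 14.0% to between 3.73% and 4.74%, and the 3 promoter lines rise.

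The chromosome arms were unequally represented. Arm 3L held 158 of the 500 (31.6%), against 22.6% of the other peaks and 21.0% of the length of the 6 arms. In the replicates' own lists 3L held 30.2%, 29.4% and 32.2% of the 500 strongest and 22.7%, 22.2% and 22.6% of the rest, a difference of 8.11 ± 1.32 points (SD, n = 3). The Eip75B, Eip74EF and Eip78C regions described below, with 40 of the 500, all lie on 3L. Without these regions 3L held 25.7% of the 500 and 21.9% of the other peaks. Arm 2L held 20.2%, 3R 19.6%, 2R 16% and X 12.4% of the 500, and chromosome 4 held 1 peak.

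The EcR/usp element was more frequent at the strongest peaks. It was present at 67 of the 500 (13.4%), beside 4.84% of the whole list and 1.2% of windows of the same width centred 1000 bp from these summits. In the own 500 strongest of replicates 1, 2 and 3 the share was 9.8%, 12.2% and 14.0%, and in the rest 3.86%, 3.73% and 4.74%. The groups did not overlap, and the difference was 7.89 ± 1.74 percentage points (SD, n = 3; 3 of 3 replicates). By rank, the share was 19% in ranks 1 to 100, 11% in ranks 401 to 500 and 3.07% beyond rank 6000. So most of the 500 strongest peaks, and 81 of the first 100, had no IR1 under this definition.

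The share with an IR1 differed between location classes. At promoters 12.8% of the 500 held an IR1, against 2.12% of the other promoter peaks, and in introns 15.4% against 5.68%. Both differences had the same direction in 3 of 3 replicates, with means of 9.11 ± 1.69 and 8.14 ± 2.53 percentage points (SD, n = 3). Intergenic peaks had the smallest of the 3 differences, with 8.06% against 4.54% and a mean of 4.57 ± 1.34 points in the replicates (SD, n = 3; 3 of 3 in that direction). In coding exons 1 of 11 peaks (9.09%) held an IR1, against 9.81% of the others. The elements lay a median of 31 bp from the summit, and 26 of the 67 were centred within 25 bp. Elements with no mismatch were present at 8 of the 500 (1.6%) and at 0.489% of the others. The 6 shown above are a part of these 8, so their ranks do not give the range over which such elements occur. An element was held by 3 of the 11 Hr4 peaks (ranks 63, 240 and 353) and 4 of the 27 Eip75B peaks (4, 18, 144 and 382). Both beat-Ib peaks (29 and 138), 2 of the 5 nmo peaks and 2 of the 4 Hr3 peaks also held one. None of the 500 at Eip74EF, EcR, vri, Glut4EF with CG46467, Eip78C, brat and gpp did.

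The word GAGAG was the most frequent of the sequence words searched. It was present, on either strand, at 263 of the 500 (52.6%), beside 38% of the whole list. Windows 1000 bp from the 500 summits held it at 29.0%, and those 1000 bp from the other summits at 23.6%, so the surroundings differed too. The own 500 of the replicates gave 51.6%, 52.2% and 52.8%, and the rest 37.4%, 37.5% and 35.9%, a difference of 15.3 ± 1.42 points (SD, n = 3). GAGAG occurred about equally with and without the receptor element, at 50.7% of the 67 peaks that held an IR1 and 52.9% of those that did not. Base composition moved with it: median GC was 50.2% in the 500's windows with GAGAG and 47.3% in those without, and its part in the difference was not tested. For IR1 the medians were 49.3% with and without.

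Receptor hexamers in other arrangements were rarer than GAGAG. The single hexamer AGGTCA, which overlaps some IR1 elements, was present at 12.4% of the 500 and 7.50% of the others. Its difference in the replicates was 5.19 ± 1.00 points (SD, n = 3). The direct repeat of the hexamer with 4 bases between (DR4) was at 2.6% and 1.57%. The GATA factor word AGATAA was less frequent among the 500, with 8.6% against 10.9%, a difference of -2.93 ± 0.39 points in the replicates (SD, n = 3). The words of AP-1 (TGACTCA), E-box factors (CACGTG), Ets factors (CCGGAA), Grainyhead (ACCGGTT), DREF (TATCGATA), Zelda (CAGGTAG) and monomeric receptors (TAGGTCA, which contains the hexamer) were each at 0.6% to 4% of the 500 and at 0.954% to 3.72% of the others. The everted repeat (ER1) and the PAR bZIP word TTACGTAA were at 0 of the 500, which allows a share of up to 0.6% for counting error alone. In the replicates' own 500, ER1 was at 0.2%, 0.2% and 0.6%, against 0.419%, 0.477% and 0.547% of the rest, and the PAR bZIP word was at 0 in each. No match says only that these letters were not within 100 bp.

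**Figure D3:**
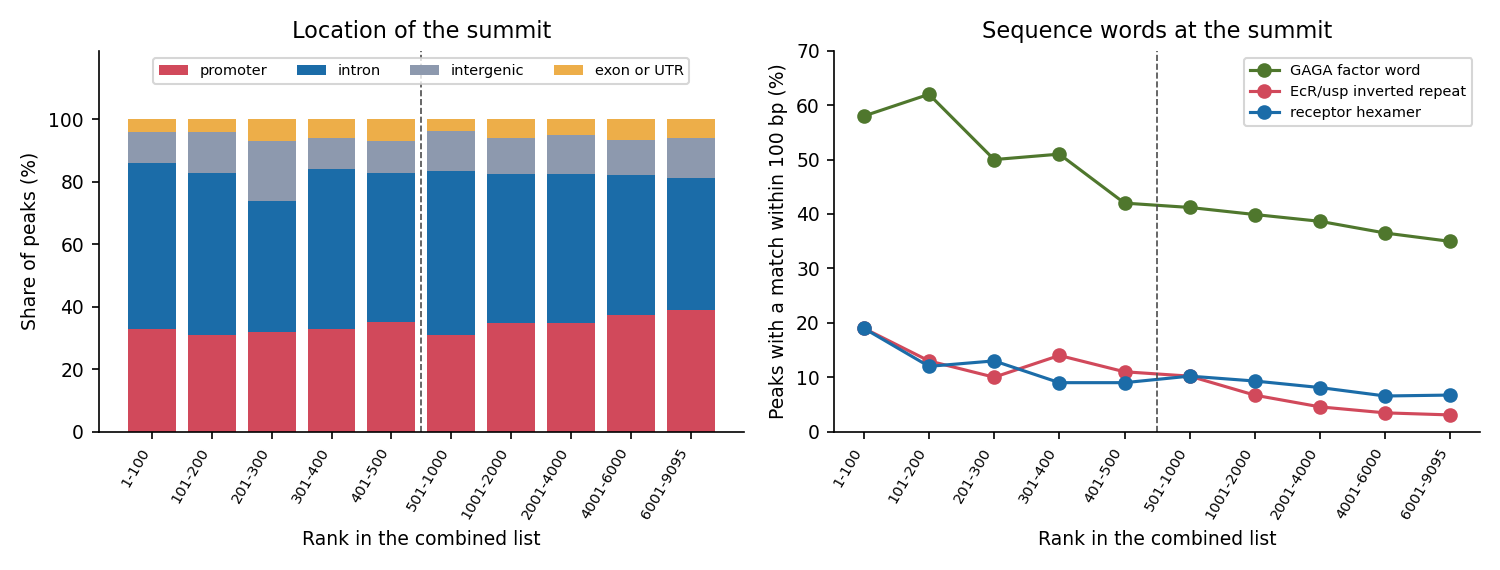
Share of peaks (vertical, %) by rank in the combined list, for the class of the summit (left, stacked bars) and for 3 sequence elements within 100 bp (right, GAGA factor word, inverted repeat and single hexamer); the dashed line marks rank 500. The inverted repeat falls from 19% in ranks 1 to 100 to 3.07% in the last bin, while the promoter share goes from 33% to 39.1%.

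**Figure D4:**
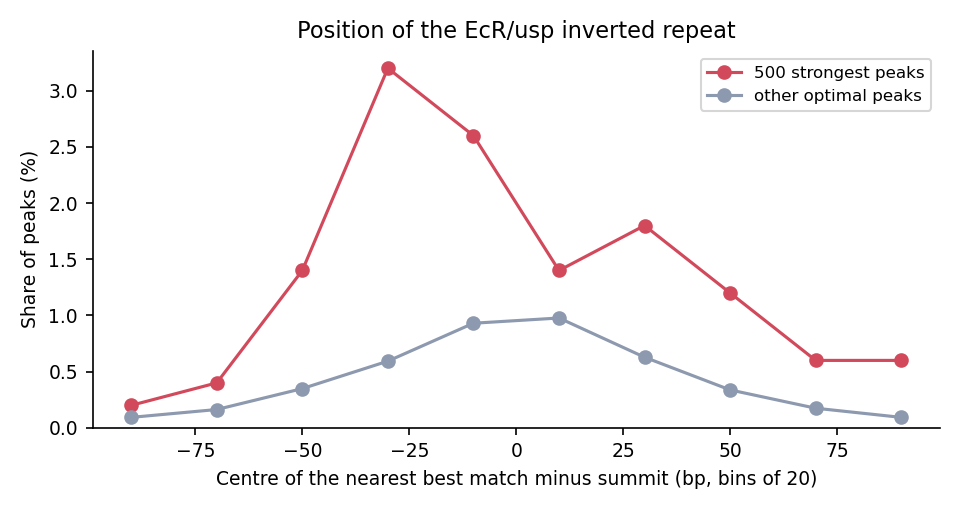
Distance from summit to the centre of the inverted repeat (horizontal, bp on the + strand, bins of 20) against the share of peaks with an element in that bin (vertical, %), for the 500 strongest and the other optimal peaks. The curve of the other peaks is highest beside the summit. That of the 500 is highest in a bin away from the summit, on the side of lower coordinates. The median distance was 31 bp for the 500 and 23 bp for the others, and 26 of the 67 elements of the 500 were centred within 25 bp.

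Most of the strong peaks lay alone, and the rest formed clusters. Of the 500, 307 had no other of the 500 within 10 kb, and 193 (38.6%) lay in 65 loci of 2 or more. Summits of the same interval were counted separately, and 79 of the 500 shared an interval with another. With 1 summit per interval the share was 31.2%, a setting not applied to the later runs below. In the 17 later runs of 500 ranks of the combined list, the share of peaks within 10 kb of another of the same run was 13.6% to 28.8%, with a median of 18.8%. Over the whole list it was 91.7%, where many more peaks share the same genome. In the replicates' own 500 the share was 40.3% ± 1.33 (SD, n = 3). The largest locus was in Eip75B, with 18 of them across 51.4 kb, and a second Eip75B locus held 7 across 10.7 kb. The start of Hr4 held 9 across 11.2 kb.

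A gene was said to hold a peak when the summit lay in its body or within 2 kb upstream of its outermost start. In all, 414 of 13945 protein-coding genes (2.97%) held 1 or more of the 500, and 360 of them held exactly 1. They had long regions, with a median of 11.2 kb against 4.17 kb for all protein-coding genes. For 70 peaks no protein-coding gene region applied, and the nearest start added 42 genes. From the replicates' own 500, 423, 423 and 406 genes were obtained, of which 327 were common to all 3. Each of those 327 also held a peak of the combined 500.

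The genes with the most strong peaks encode transcription factors of the ecdysone cascade: 12 genes held 4 or more of the 500, and 7 of the 12 are on the ecdysone response list given below. These counts were not adjusted for region length. The regions of Eip75B, Hr4, Eip74EF and EcR span 116, 68.0, 62.7 and 83.2 kb, against a median of 4.17 kb for all protein-coding genes. Eip75B, an early gene that encodes the nuclear receptor E75, held 27 of the 500 out of its 83 optimal summits, and 24 of the 27 were in the own 500 of all 3 replicates. Its strongest, in an intron at 3L 18002777–18007006 (signal 16518), ranked 2, 2 and 3 in replicates 1, 2 and 3. Hr4, a nuclear receptor of the prepupal cascade, held 11 of 24, the strongest ranking 27, 24 and 15. Eip74EF, an early gene for an Ets-domain factor, held 8 of 25, and its best ranked 7 in all 3 replicates. The gene of the receptor itself, EcR, held 8 of 43, with its best in an intron at ranks 8, 8 and 16. Since the tagged receptor is a transgene, a part of the signal at EcR from the transgene's own copy was not tested.

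The remaining genes with 4 or more covered other regulators. The bZIP repressor gene vri, a part of the circadian clock, held 7 of 16. Its intron peak was the second strongest of all and ranked 4, 4 and 2. The nuclear receptor gene Eip78C and the Nemo kinase gene nmo held 5 each. The overlapping genes Glut4EF and CG46467 shared the same 5. The nuclear receptor gene Hr3, the translational repressor gene brat and gpp, which encodes the histone H3 lysine methyltransferase Dot1, held 4 each. Hr3 shared its 4 with neighbouring genes.

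**Figure D5:**
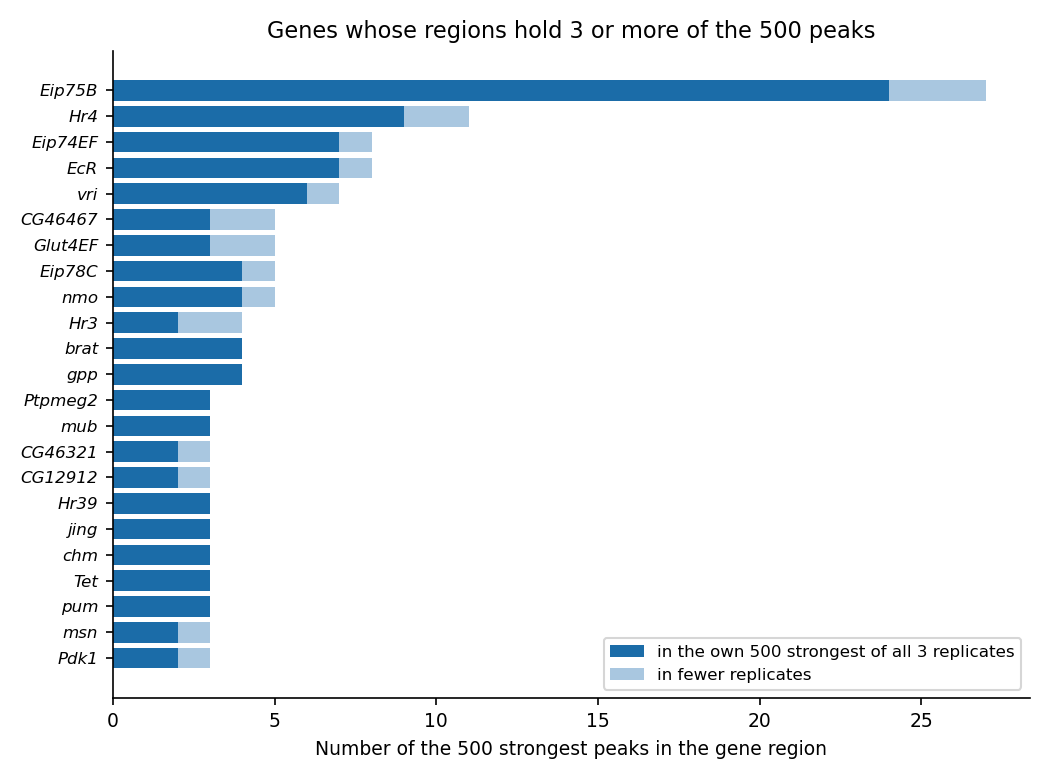
Number of the 500 strongest peaks (horizontal) in the region of each protein-coding gene that holds 3 or more; dark bars are peaks in the own 500 strongest of all 3 replicates and light bars those in fewer. Eip75B stands first with 27, followed by Hr4 with 11 and by Eip74EF and EcR with 8 each.

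Of 28 ecdysone response genes, 14 held 82 of the 500 peaks, beside 2.97% of all protein-coding genes. The replicates' own 500 gave 13, 14 and 15 genes. The genes of this list have long regions too, with a median of 24.4 kb. Any optimal summit was held by 89.3% of the list, beside 30.7% of all protein-coding genes. Apart from those above, the 14 genes were tai, Sox14, Hr39, E23, Kr-h1, Blimp-1 and Eip93F. Sox14 encodes a transcription factor required for neuronal pruning, and its best peak ranked 32, 52 and 64. Eip93F, which encodes the E93 competence factor of metamorphosis, held 1 in an intron (rank 302). Another 3 (ranks 54, 221 and 283) lay outside its region, 4957 to 11298 bp from its start, which was the nearest. The element with no mismatch shown above is at rank 221. Other members of the list held no such peak although they were bound more weakly, among them br with 18 optimal summits, ftz-f1 with 12 and Eip63E with 11. The partner gene usp held 1 optimal summit and none of the 500.

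Of 21 nuclear receptor genes, 7 (33.3%, beside 2.97% of all protein-coding genes) held 59 of the peaks, 27 of them at Eip75B. The regions of the 21 genes are long, with a median of 24.4 kb against 4.17 kb for all protein-coding genes. Any optimal summit was held by 76.2% of the 21, beside 30.7% of all protein-coding genes. Hnf4 (rank 357), the gene of a receptor that regulates lipid use, was the only one of the 7 outside the ecdysone response list. Among 20 receptor coregulators, 4 (20%) held a peak, with a median region of 9.86 kb over the list, and 40% held any optimal summit. The 4 were the EcR coactivator gene tai (best rank 47), the corepressor gene Smr (160), the Mediator subunit gene skd (186) and osa (279). The last encodes a subunit of a Brahma chromatin remodelling complex.

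Genes that supply or remove the hormone were represented by 3 of 14 (21.4%, beside 2.97% of all protein-coding genes), with a median region of 5.59 kb. Any optimal summit was held by 50% of the 14, beside 30.7% of all protein-coding genes. The P450 gene phtm (phantom), for a step of ecdysteroid synthesis, had a peak in the intergenic sequence upstream that ranked 52, 60 and 42. The ABC transporter gene E23 held 2 (best rank 72), and Oatp74D, which encodes an ecdysone importer, held 2 (best rank 149). A further peak (rank 165) lay 2761 bp from the start of Cyp18a1, an ecdysteroid-inactivating P450 gene, outside its region.

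The lists of downstream processes had 10% to 21.1% of their genes with a strong peak, beside 2.97% of all protein-coding genes, and median regions of 4.40 to 6.74 kb. They were also bound more often at any strength. An optimal summit was held by 56.25% of the cell death, 70% of the autophagy and 68.4% of the chitin and cuticle genes, beside 30.7% of all protein-coding genes. In cell death, 3 of 16 genes (18.8%) held 1 each. They were the effector caspase gene Drice (ranks 94, 124 and 221 in the replicates), the apoptosome gene Dark (142, 160 and 197) and hid (540, 687 and 379). Outside the regions, rank 254 lay 5331 bp from the start of hid and rank 415 lay 2349 bp from that of Diap1, another gene of this list. Each was the nearest protein-coding start. Autophagy genes had 2 of 20 (10%), Atg7 (rank 412) and Atg16 (452). In chitin and cuticle formation 4 of 19 (21.1%) held 1 each, led by the chitin synthase gene kkv (192), followed by Idgf2, Cht6 and Cht7.

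The lists of signalling, remodelling and clock genes ranged from 6.67% to 40% of their genes, beside the same 2.97%. Any optimal summit was held by 50% of the insulin and growth control, 80% of the Notch, 80% of the remodelling and 60% of the clock genes. Insulin and growth control had 4 of 20 genes (20%; median region 8.10 kb), with 2 peaks at the insulin receptor gene InR (ranks 41 and 93), 2 at Mnt and 1 each at Akt and slmb. Notch signalling had 1 of 15 (6.67%; 21.1 kb), the coactivator gene mam, whose intron peak (rank 9) ranked 10, 10 and 9. Neuronal remodelling had 6 of 15 (40%), namely Sox14, brat, heca, Eip93F, Mical and Imp, and this list had the longest regions of all 13, with a median of 47.9 kb. The circadian clock had 2 of 10 (20%; 14.4 kb), vri and sgg (rank 40), the gene of the fly GSK3 kinase. Below the share of all genes were 1 of 119 chemoreceptor genes (Or67a, 0.840%) and 1 of 87 cytosolic ribosomal protein genes (RpS19b, 1.15%). Their regions are short, with medians of 3.44 and 3.33 kb, and 3.36% and 31.0% of them held any optimal summit. No list was compared with genes of the same region length. The lists also overlap, so they are not independent. On the ecdysone response list too are tai, E23, Sox14, Eip93F and vri, which held 7 of the 8 peaks of the clock list.

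Some of the very strongest peaks were at genes of none of these lists. The strongest of all (2L 2198414–2203951, signal 20268) ranked 1 in all 3 replicates and lay in intergenic sequence, 2513 bp from the start of COX7AL2. Together with an intron peak of that gene (rank 5) it belonged to a locus of 5 across 6.34 kb, which reached towards CG31668. Rank 7 lay in an intron shared by lama and CG46456, rank 8 at the promoters of HemK2, Snapin and Tnpo-SR, and rank 11 near CG43389. The rhodopsin gene Rh5 was the assigned gene of 4 peaks in 1 locus (best rank 12). Of these, 1 was 676 bp from the start of Rh5 and the other 3 were 3760 to 5632 bp from it and closer to lncRNA:CR44588. Ranks 13 to 40 included peaks in the regions of CG30089, MESR6, Ptpmeg2, CtBP with CG8031 and CG11656, beat-Ib, mub, bip1, Oscillin, Svil with Cyp4d20, and bora with not. Of these, CtBP encodes a corepressor. The peak in beat-Ib (rank 29) lay 53 bp from the start of lncRNA:CR44867. Rank 21 lay nearest to CG13721 but 51 bp from the start of lncRNA:CR44709.

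Noncoding genes were the nearest start for 120 of the 500. The same share was not computed for the other peaks, so this count is not a trait of the 500. The largest group was at lncRNA:let7C, the host transcript of let-7, mir-100 and mir-125, microRNAs that are switched on at metamorphosis. It held 4 of the 500 among its 16 optimal summits, with a best rank of 80, and 3 of the 4 were in the own 500 of all 3 replicates. These ranked 74, 113 and 72 in the replicates for the strongest and 559, 553 and 367 for the weakest. The nearest protein-coding start was 14023 bp from the strongest.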

How the data were processed

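The authors' files are peak lists in dm6. Per the deposited notes, a list was called for each replicate and for the pooled alignments, each with a control alignment, and the optimal list was derived from them with a threshold on the irreproducible discovery rate (IDR). Caller, settings and sequencing depth are stated by no source used here, and the control was not analysed here. Each peak carries a signal value and a −log10 q-value as deposited by the authors.

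The peaks of the IDR list were ranked by signal and the first 500 taken. Each summit was assigned to protein-coding gene bodies plus 2 kb upstream in Ensembl 115, otherwise to the nearest start. Sequence came from the release 6 genome in RefSeq. Signal from different lists was not compared. Shares were tested by an exact sign-flip permutation over 3 replicates. Intervals were not computed, since counts were not given. The exact sign-flip permutation test took these 3 biosamples as its units. Where all 3 differed in the same direction, it returned its smallest possible value, whatever the size or spread of the differences. The motif search, summit matching and gene assignment were tested on simulated data.

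The members and gene lists were chosen with earlier results of these data known. Named genes are those with 4 or more of the peaks, those at ranks 1 to 40, up to 6 genes a list by rank, those at the 10 widest replicate rank spreads or lacking a replicate summit, the 3 ranks on either side of the limit, and those with an IR1 without mismatch, of which 1 element is not reported here. Genes beyond these (Cyp18a1, Diap1, Hsp27, lncRNA:let7C, the rest of the ecdysone response list and those of the closing observations) were named after their values were seen. The clustering of later runs of 500 ranks was computed after the data were seen. The entry phm of the hormone supply list matched no single gene and was left out. Python 3.11.15, numpy 2.4.6, pandas 2.3.3 and scipy 1.17.1 were used.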

Additional observations from a re-analysis of the deposited data

How the results depend on the processing

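Of 88 alternatives over 10 results, 52 left the value within the spread between replicates, or a count within 1.5 times, and 36 moved it. Leaving out a replicate gave 89.9% to 90.1% of the 500 in a replicate's own 500, 406 to 429 peaks in all remaining replicates, and, among peaks in the own 500 of both others, 32.4% to 33.8% in promoters, 47.8% to 49.3% in introns, 12.6% to 13.2% intergenic, 12.8% to 14.0% with an IR1, 37.5% to 38.9% within 10 kb, 374 to 400 genes, 13 to 14 ecdysone response genes and a median width of 1205 to 1246 bp. With the 250 strongest, the values were 91.1% in a replicate's own strongest, 201 in all 3, 14% intergenic, 15.6% with an IR1, 42.4% within 10 kb, 218 genes and 1400 bp. With the 1000 strongest, 768 were in all 3, 50.9% lay in introns, 48% within 10 kb, in 857 genes, and the median width was 1066 bp. With 1 summit per interval, 89.1% were in a replicate's own strongest, 34.4% lay in promoters, 48% in introns and 31.2% within 10 kb, and the width was 1103 bp. Sharing within 50 bp gave 87.9%, within 200 bp 90.5% and by interval overlap 91.1%. A 250 bp promoter gave 22.2% promoter, 54% intron and 14.6% intergenic, a 1000 bp promoter 43.6%, 43.6% and 9.4%, and protein-coding starts 26.8% promoter and 13.2% intergenic. Under each promoter definition the 500 had fewer promoter and more intron peaks than the others. The IR1 share was 1.6% with 0 mismatches, 44.6% with 2 and 9.4% within 50 bp. It was higher than in the other peaks by 2.61 to 3.27 times under every IR1 setting. Within 5 kb and 20 kb the clustered share was 31.4% and 47.8%. Why these values moved was not tested, beyond the smaller or larger sets and windows themselves.

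No paired analysis was possible because there is 1 group, apart from the comparison of strong and weaker peaks within each replicate given above. Read depth is unknown, so weak differences between neighbouring ranks cannot be judged, and 3 replicates cannot give a p under 0.25.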

Other observations

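A variant of the receptor element was looked for after the windows of the strongest peaks had been seen, so its counts are a description. The form GTGCANTGCAC differs from the IR1 consensus in both copies of the hexamer and was therefore not counted as an IR1 above. It was present within 100 bp of 4 of the 500 summits (0.8%) and 10 of the others (0.116%), and at 0 windows 1000 bp from the 500 summits. Those 4 included the strongest peak of all, near COX7AL2, and the Eip75B peak at rank 3. The others were at CBP and CG1677 (rank 450) and at prage (rank 470).

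The form changed in 1 copy only, GTTCANTGCAC, is that of the Hsp27 element. It was at 9 of the 500 (1.8%) and at 0.512% of the others, and at 0.1% of the windows 1000 bp from the 500 summits. The 9 included E23 (rank 72), nmo (rank 161), bbg (rank 258) and Hsp27 itself (rank 362). This form can count as an IR1 with 1 mismatch, so the 9 overlap the 67 peaks with an IR1 given above. The peaks at ranks 72, 79, 87, 258, 362 and 425 are in both counts. With at most 2 mismatches, which takes in both forms, the IR1 share was 44.6% in the 500 and 17.1% in the others.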
